A study of Mus musculus with 2 samples.

Results

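Expression of 10 genes of mesenchymal cells and activated hepatic stellate cells was examined in mouse liver tumours. The genes were Vim and Des (intermediate filaments), Acta2 and Tagln (contractile proteins), Pdgfra and Pdgfrb (receptors for platelet-derived growth factor, PDGF), Sparc and Thbs1 (matricellular proteins), and Lum and Dcn (small leucine-rich proteoglycans). These genes were picked by symbol, as the 10 of 19938 genes that these names match among probe sets to which the platform annotation gives a single gene, and each had 1 probe set. One array was run on carcinoma tissue from HLF-deficient mice given DEN and 1 on carcinoma tissue from WT mice given DEN. HLF is hepatic leukemia factor, a transcription factor of the PAR bZIP family, and DEN is diethylnitrosamine, a liver carcinogen that both genotypes received. The study asked which genes are expressed differently in hepatocellular carcinoma that arises without HLF. How the HLF deficiency was made, the strain, sex and age of the mice, the DEN schedule and the number of mice behind each array are not given in the sources used here.

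Hepatic stellate cells lie between hepatocytes and the sinusoidal endothelium, where they store vitamin A while quiescent. After injury they activate into myofibroblast-like cells that gain contractile filaments and PDGF receptors and secrete the scar matrix, and in liver tumours they are a main source of cancer-associated fibroblasts. Several of the 10 genes are also used outside this lineage, since Vim is expressed by endothelial cells and leukocytes, Sparc by endothelial cells, and Acta2, Tagln and Des by vascular smooth muscle.

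Levels are RMA values on a log2 scale as deposited, and each difference is HLF-deficient minus WT, so that a value of 1 is 2-fold. With 1 array per genotype there was no SD, no p-value and no way to know whether a difference exceeds the spread between tumours, and a fixed rule of 2-fold was used instead. The 2 arrays held 35556 probe sets each. A floor of expression was set at 2.98, the 95th percentile of 1243 probe sets of chemosensory receptors (olfactory, vomeronasal, taste), which liver does not use, and the 14575 genes at or above it on at least 1 array were compared. As a guide to measurement error, differences of a gene's 2 brightest probe sets were compared in 739 genes, which gave an SD of 0.24 per probe set; it does not cover differences between mice or tumours, and none of the 10 genes had a second probe set. Hlf itself had a level of 3.79 in the HLF-deficient tumour and 5.13 in the WT tumour. All 9 measured hepatocyte markers were above the floor on both arrays, and none differed by 2-fold.

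All 10 mesenchymal genes were above the floor on both arrays. Vim, Sparc and Thbs1 passed 2-fold upwards in the HLF-deficient tumour, Pdgfrb and Lum lay between 1.5-fold and 2-fold higher, and Des, Acta2, Dcn, Pdgfra and Tagln lay within 0.24 of 0. Thus 3 of 10 were higher by 2-fold, where 1.5% of all compared genes were, and 0 of 10 were lower by 2-fold, where 0.364% of all compared genes were. In either direction the background was 1.86%. At the looser rule of 1.5-fold, 5 of 10 were higher against 6.37% of all compared genes. The median difference of the 10 was 0.44, and that of all compared genes 0.07. Positive differences were found for 9 of the 10 and for 58.2% of all compared genes. The 10 were chosen with results of these arrays known, so these counts describe the genes and are not a test of the list. In a piece of tumour, more cells of a type and more RNA per cell cannot be told apart.

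**Figure D1:**
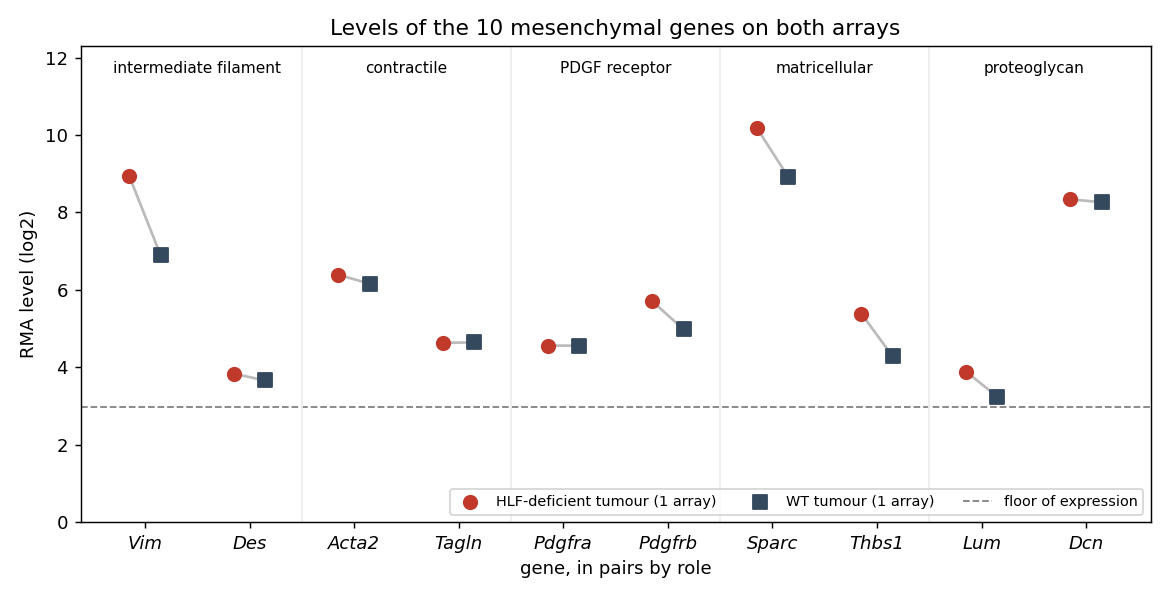
RMA level (log2, vertical axis) of each of the 10 genes, grouped by role, in the HLF-deficient tumour (circles) and the WT tumour (squares), 1 array each, with the floor of 2.98 as a dashed line. Lines slope down steeply for Vim, Sparc and Thbs1 and lie nearly flat for Tagln, Pdgfra and Dcn.

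The intermediate filament genes differed from each other. Vim encodes vimentin, the intermediate filament protein of most mesenchymal cells. Its level (probe set 10469322) was 8.94 in the HLF-deficient tumour and 6.89 in the WT tumour. The difference of 2.04, or 4.13-fold, was the 24th largest increase among the 14575 genes. Of the 1089 compared genes with a mean level as high as that of Vim or higher, 0 had as large an increase. Des encodes desmin, the filament protein of muscle and a classical marker of rodent stellate cells. Probe set 10347583 gave it a level of 3.84 in the HLF-deficient tumour and 3.66 in the WT tumour, a difference of 0.17 that is smaller than the SD of a probe set. The difference for Vim thus exceeded that for Des by 1.87, and by 1.60 with a loess trend of difference on level removed. Des lay far lower than Vim on both arrays and nearer the floor of 2.98, where RMA compresses differences. The contrast is therefore between genes of unlike level.

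The contractile genes were near level. Acta2 encodes smooth muscle alpha-actin, the standard marker of activated stellate cells and myofibroblasts. Its level (probe set 10467124) was 6.39 in the HLF-deficient tumour and 6.16 in the WT tumour, a difference of 0.23. Centring turned that difference to 0.35, quantile normalization to 0.03 and loess to 0.06. Actin genes are similar in coding sequence, so this probe set may read other actins too. Tagln encodes transgelin, an actin-binding protein of smooth muscle. It had levels of 4.63 in the HLF-deficient tumour and 4.64 in the WT tumour (probe set 10593123). Its difference of -0.01 was the only negative one of the 10 as deposited, and it became positive, at 0.11, with the arrays centred on their medians.

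The PDGF receptors also parted. Pdgfrb encodes the beta receptor, through which PDGF drives stellate cell proliferation and migration, and which pericytes carry as well. On probe set 10456046 its level was 5.71 in the HLF-deficient tumour and 4.98 in the WT tumour. The difference of 0.73, or 1.66-fold, stayed under 2-fold at each scaling tried. Pdgfra, the alpha receptor, had a level of 4.56 in the HLF-deficient tumour and 4.56 in the WT tumour (probe set 10522503), so the receptor pair was higher in its beta member and level in its alpha member.

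Both matricellular genes passed 2-fold. Sparc encodes a secreted glycoprotein that binds collagen and calcium and modulates how cells attach to matrix. Its level (probe set 10386058) was 10.19 in the HLF-deficient tumour and 8.92 in the WT tumour. The difference of 1.26, or 2.40-fold, was the 113th largest increase, and of 267 compared genes with a mean level as high or higher 0 had as large an increase. Thbs1 encodes thrombospondin 1, which activates latent TGF-beta and restrains angiogenesis and is also carried by platelets. On probe set 10474700 its level was 5.39 in the HLF-deficient tumour and 4.28 in the WT tumour. The difference of 1.11, or 2.16-fold, was the 155th largest increase and was no lower than 1.07 at the other scalings tried. Of 7874 compared genes with a mean level as high as that of Thbs1 or higher, 90 had as large an increase.

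The proteoglycan genes are immediate neighbours in the RefSeq gene order of assembly GRCm38.p6, with 0 protein-coding genes between them. Lum encodes lumican, a small proteoglycan that organises collagen fibrils. Its level (probe set 10365983) was 3.89 in the HLF-deficient tumour and 3.24 in the WT tumour, a difference of 0.65, or 1.57-fold. The WT value lay close to the floor, where RMA compresses differences. Dcn encodes decorin, which binds collagen and TGF-beta and is abundant in quiescent and activated liver mesenchyme alike. It had levels of 8.34 in the HLF-deficient tumour and 8.26 in the WT tumour (probe set 10365974). Its difference of 0.07 was close to the median of all compared genes, and it was below 0 after quantile normalization, at -0.03, and after loess, at -0.06.

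**Figure D2:**
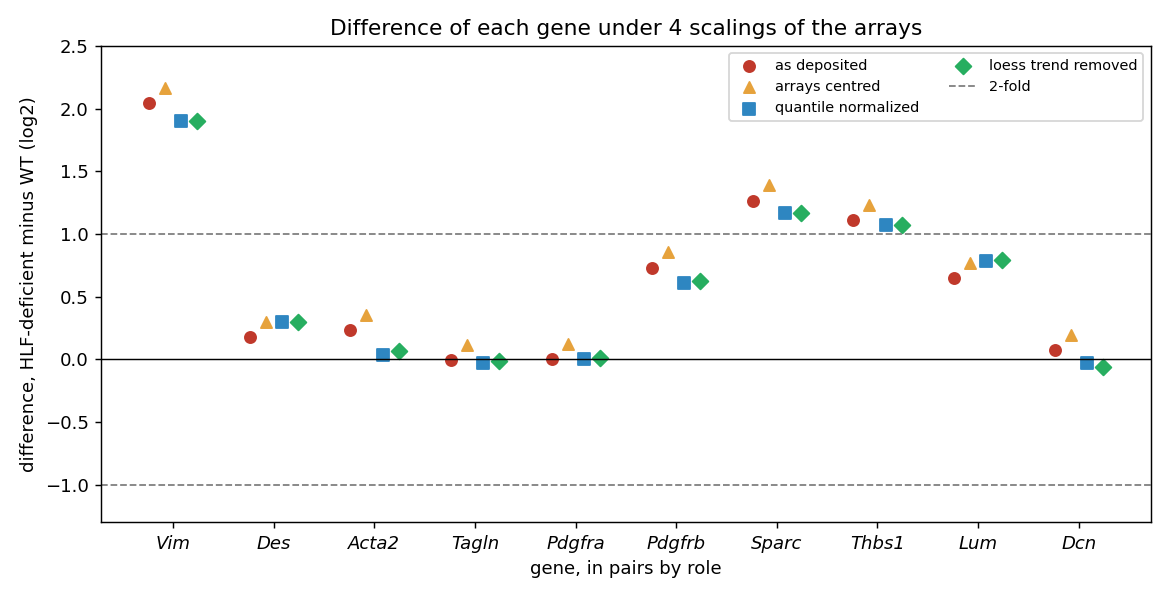
Difference of each gene (log2, HLF-deficient minus WT) as deposited, with each array centred on its median, after quantile normalization and after removal of a loess trend. Dashed lines mark 2-fold. Vim, Sparc and Thbs1 stay above the upper line at all 4 scalings, Pdgfrb and Lum stay between 0 and that line, and Tagln, Pdgfra and Dcn straddle 0.

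The deposited columns were not fully aligned. Their medians over all probe sets were 3.61 on the HLF-deficient array and 3.73 on the WT array, so that centring adds 0.12 to every difference. Differences are therefore given beside those of all genes. With the arrays centred, the median of the 10 genes was 0.56 and that of all compared genes 0.20. After quantile normalization they were 0.45 and 0.03, and after loess 0.46 and 0.04. Vim, Sparc and Thbs1 were the members past 2-fold in each case, with Vim between 1.90 and 2.17.

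**Figure D3:**
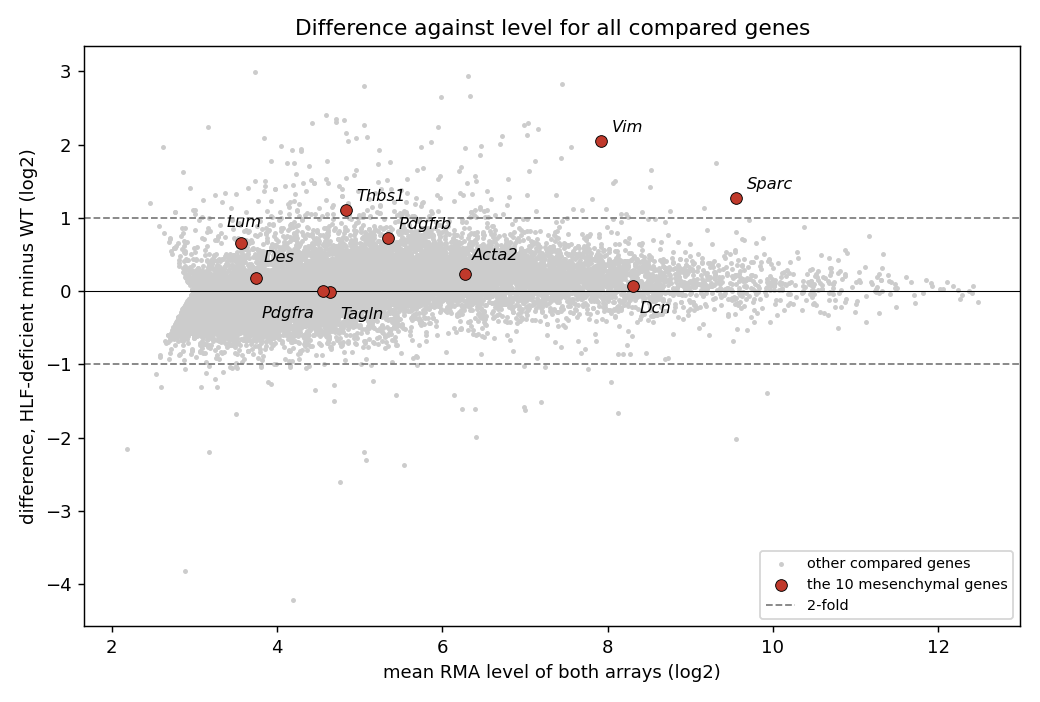
Difference (log2, HLF-deficient minus WT) against the mean level of both arrays (log2) for the 14575 compared genes (grey) and the 10 mesenchymal genes (red, named). Dashed lines mark 2-fold. Vim and Sparc lie above all genes as bright or brighter, and Acta2, Tagln, Pdgfra, Des and Dcn lie inside the main cloud.

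Promoter sequence was read for genes on both sides of the split, Vim and Sparc, which passed 2-fold, and Acta2, which did not. RefSeq promoter windows of build GRCm38.p6 were used for 5 of the 10 genes, Vim, Des, Acta2, Pdgfra and Sparc. Windows of Tagln, Pdgfrb, Thbs1, Lum and Dcn were not read, being unmatched or on a chromosome left out of the match. The 250 bases before each annotated start are printed 5′ to 3′ on the gene's strand. Capitals mark a TATAAA box in the Vim window and CArG-type stretches in the Acta2 window, the CArG box being the binding site of serum response factor (SRF).
Vim, chr2:13574061-13574310, plus strand: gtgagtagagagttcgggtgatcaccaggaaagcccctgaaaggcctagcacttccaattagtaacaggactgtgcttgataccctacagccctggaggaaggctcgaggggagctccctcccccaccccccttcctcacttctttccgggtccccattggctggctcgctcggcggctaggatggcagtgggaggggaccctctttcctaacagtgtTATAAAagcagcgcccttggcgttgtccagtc
Sparc, chr11:55420081-55420330, minus strand: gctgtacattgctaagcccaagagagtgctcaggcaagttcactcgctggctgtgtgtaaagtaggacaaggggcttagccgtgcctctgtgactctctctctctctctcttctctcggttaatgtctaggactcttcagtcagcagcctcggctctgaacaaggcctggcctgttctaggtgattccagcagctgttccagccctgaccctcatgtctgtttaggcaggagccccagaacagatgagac
Acta2, chr19:34255374-34255623, minus strand: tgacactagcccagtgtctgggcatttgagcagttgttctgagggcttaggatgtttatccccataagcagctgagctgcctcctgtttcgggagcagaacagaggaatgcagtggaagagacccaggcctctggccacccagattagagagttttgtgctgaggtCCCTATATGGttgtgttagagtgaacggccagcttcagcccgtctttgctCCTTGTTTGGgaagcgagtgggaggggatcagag

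Both strands of 32851 windows of this length were searched, except for the PAR bZIP site. The letters TATAAA occurred in the Vim window, beginning 32 bases before the start, and in 12.4% of all windows. The AP-1 site TGAGTCA occurred in 0 of the 5 windows and in 4.46% of all. A PAR bZIP site, the kind of site that HLF binds, was searched on the gene's strand only. It occurred there in 0 of the 5 and in 0.110% of all, and sites that read so only on the other strand were not counted. A full CArG box occurred in 0 of the 5 and in 1.47% of all. With 1 C or G allowed among its inner bases, a form chosen after the sequences were seen, the Acta2 window held 2 CArG-type stretches, beginning 84 and 34 bases before the start, against 8.59% of all windows with at least 1. A missing match says only that these letters are not in this window.

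Other genes of the same roles were described from lists chosen with earlier results of these arrays known. Their counts stand beside those of all compared genes, of which 58.2% had positive differences as deposited and 71.3% with the arrays centred. Of 9 compared genes of the activated stellate matrix program, 0 passed 2-fold, 8 had positive differences and the median was 0.32. The type I collagen genes Col1a2 and Col1a1 were at 0.76 and 0.32, the type III collagen gene Col3a1 at 0.53, Col5a2 at 0.03 and Col5a1 at -0.06. Fap, a surface protease of activated fibroblasts, lay under the floor on both arrays. Of 15 compared genes of quiescent stellate cells, 0 passed 2-fold and 10 had negative differences, or 8 with the arrays centred. Their median was -0.13, or -0.004 with the arrays centred. Lrat, which esterifies vitamin A for storage, had levels of 4.98 in the HLF-deficient tumour and 5.11 in the WT tumour. Nes lay under the floor on the WT array and was at least 1.53-fold higher, and Hgf was at 0.50. Gfap lay under the floor on the HLF-deficient array and was at least 1.15-fold lower, and Lhx2 and Hand2 were at -0.44 and -0.43.

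Around Vim and Des, 9 genes of other intermediate filaments and their linkers were compared and 0 passed 2-fold. Beside Nes, Plec, a linker of filaments to membranes and actin, was at 0.48. Synm and Prph were at -0.38 and -0.33, and Gfap has only the bound given above. The hepatocyte keratins Krt8 and Krt18 differed by 0.26 and 0.20. Around Acta2 and Tagln, 0 of 15 smooth muscle and contractile genes passed 2-fold and their median was 0.06. The smooth muscle genes Myh11 and Cnn1 were at -0.16 and -0.13, and Pdlim7 was lowest at -0.22. Flna and Tagln2, which cross-link or bind actin in many cell types, were highest at 0.87 and 0.86. Of 5 regulators that act through SRF, 0 passed 2-fold, with Rock1 and Rhoa at 0.50 and 0.38 and Mrtfb and Mrtfa at -0.09 and -0.001.

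All 4 PDGF ligands had positive differences, against 58.2% of all compared genes, and 0 passed 2-fold. Pdgfd, a ligand of the beta receptor, was below the floor in the WT tumour and at least 1.54-fold higher, Pdgfb was at 0.48, Pdgfa at 0.40 and Pdgfc at 0.28. Of 9 other small leucine-rich proteoglycans, 5 were below the floor on both arrays, including Kera and Epyc. Bgn, which encodes biglycan, differed by 0.54, Prelp differed by 0.45 and Podn by -0.12. Aspn measured 1.20, but its WT value was below the floor, so that it was at least 1.06-fold higher.

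Among 12 other matricellular genes compared, 2 passed 2-fold upwards and 0 downwards, with a median of 0.11. Sparcl1, which encodes a relative of Sparc, had a level of 5.67 in the HLF-deficient tumour and 4.30 in the WT tumour, a difference of 1.37, or 2.58-fold. Ccn1, a secreted matrix signalling protein gene, was at 1.02 and fell short of 2-fold after quantile normalization, at 0.82. Comp and Spock2 were lowest at -0.51 and -0.35. Postn and Tnc, under 2-fold, were at 0.87 and 0.83, and 5 of the 12 had negative differences. The thrombospondin relatives Thbs2 and Thbs3 differed by 0.04 and -0.15. All 6 genes of surface proteins that bind thrombospondin had positive differences, against 58.2% of all compared genes, with a median of 0.65. Cd36, a scavenger receptor of endothelial cells and macrophages, and Itga6, an integrin subunit, were higher by 2.22-fold and 2.01-fold. After quantile normalization they were at 0.95 and 0.94 and 0 of the 6 passed 2-fold. Lrp1 and Cd47 were lowest at 0.32 and 0.18.

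**Figure D4:**
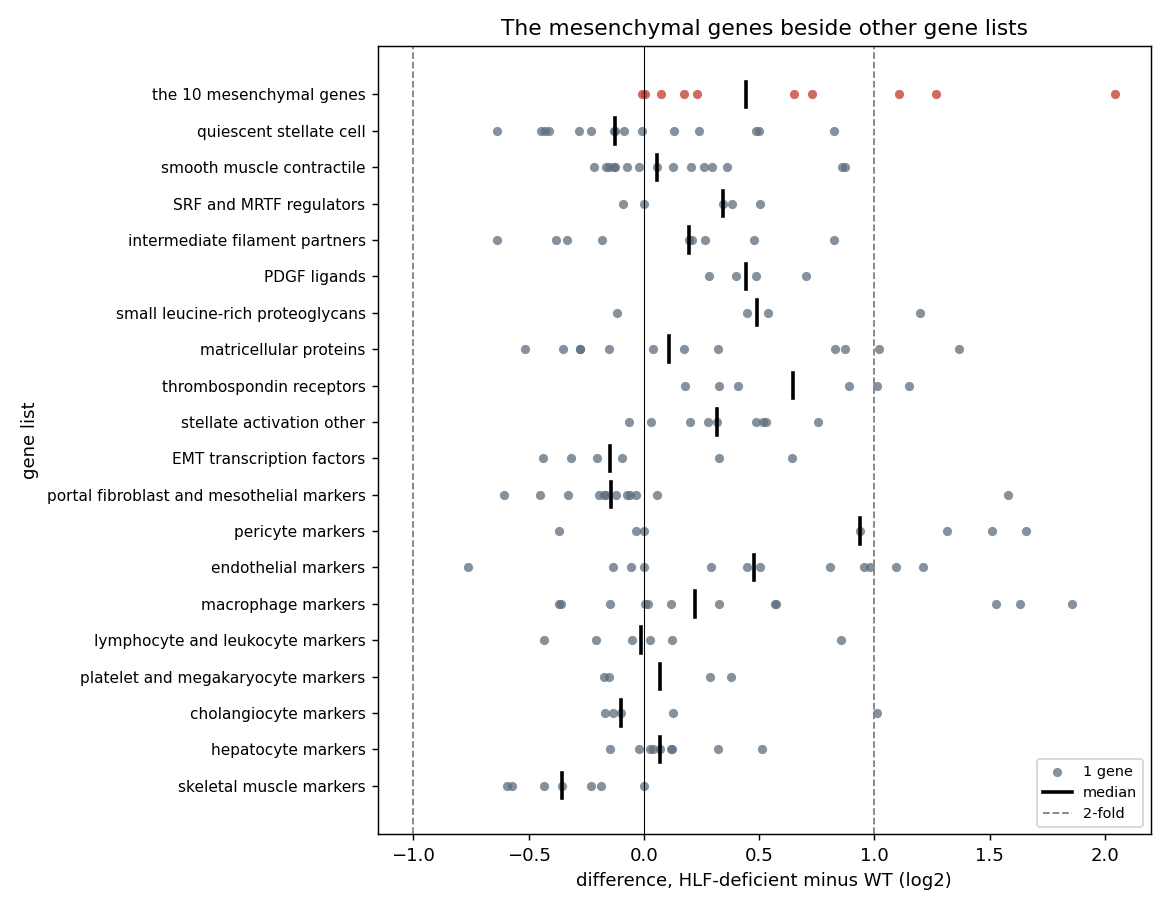
Difference (log2, HLF-deficient minus WT, horizontal axis) of each compared gene (points) in the 10 mesenchymal genes (top row, red) and in 19 other lists, with the median of each list as a black bar and 2-fold as dashed lines. Points to the right of the 2-fold line number 3 in the top row, 3 in the pericyte row, 2 in the endothelial row and 3 in the macrophage row, where Gpnmb lies under the floor on the WT array and is only at least 1.63-fold higher; the smooth muscle, quiescent stellate and hepatocyte rows have none.

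Some markers of other cells that express Vim, Sparc, Pdgfrb or Thbs1 passed 2-fold as well, and others were near level or lower. Of 7 compared pericyte markers, 3 were higher by 2-fold and the median was 0.94. Mcam, an adhesion molecule of pericytes and endothelium, had levels of 6.53 in the HLF-deficient tumour and 4.87 in the WT tumour. Abcc9 and Kcnj8, the subunits of the potassium channel of mural cells, differed by 1.51 and 1.31, and Rgs5 by 0.94. Cspg4, Notch3 and Higd1b were at -0.37, -0.03 and 0.002, and Angpt1 lay under the floor on both arrays. The sum of the 7 on a linear scale was 463 units on the HLF-deficient array and 209 units on the WT array, a ratio of 2.22. That sum rests mostly on the brightest of the 7, which were Abcc9, Kcnj8, Rgs5 and Mcam on both arrays.

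Of 12 endothelial markers, 2 passed 2-fold and 9 had positive differences, with a median of 0.48. Among all compared genes, 58.2% had positive differences. Lyve1 and Flt1 were highest at 1.21 and 1.09, Clec4g, a lectin of sinusoidal endothelium, was at -0.76 and Tek at -0.13. Their linear sum was 1143 units on the HLF-deficient array and 881 units on the WT array. Of 12 macrophage markers, 3 measured higher by 2-fold, with Gpnmb among them, and the median was 0.22. Cd14 and Cd68 differed by 1.86 and 1.53. Gpnmb, below the floor in the WT tumour, was at least 1.63-fold higher. Clec4f and Vsig4, genes of resident Kupffer cells, differed by -0.37 and -0.36, and the linear sum was 1103 units on the HLF-deficient array and 829 units on the WT array. Whether cells of these types carried part of the differences of Vim, Sparc, Thbs1 and Pdgfrb was not tested.

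The other marker lists had 0 or 1 gene past 2-fold. Of 12 portal fibroblast and mesothelial markers, 1 passed 2-fold and 10 had negative differences (6 with the arrays centred, 7 after quantile normalization), with a median of -0.14 and a linear sum of 204 units on the HLF-deficient array and 190 units on the WT array. That 1 was Cd34, also an endothelial gene, at 1.58, and the next was Entpd2 at 0.05, while Gli1 and Wt1 were lowest at -0.61 and -0.45. Among 6 leukocyte markers 0 passed 2-fold, with Ptprc, which all leukocytes express, at 0.86, Cd4 at 0.12 and the T cell genes Cd3e and Cd8a at -0.43 and -0.21, and the B cell genes Cd79a and Ms4a1 were below the floor on both arrays. Platelet genes, of interest because platelets hold thrombospondin 1, had 0 of 4 past 2-fold, with Ppbp and Pf4 at 0.38 and 0.29 and Itga2b and Gp9 at -0.17 and -0.15. For skeletal muscle, a source of Des, 0 of 7 passed 2-fold and none was positive as deposited (1 was with the arrays centred), with Ckm and Tnnc2 lowest at -0.59 and -0.57 and Mylpf and Acta1 highest at 0.00 and -0.18.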

How the data were processed

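The authors' deposited values are log2 expression per probe set. RMA and Affymetrix Expression Console are the tools that the submitters' processing notes name. The log2 scale was read from the values, which run from 0.25 to 12.7. RMA evens out array distributions and compresses differences near background, and the set of arrays it was run on is not named there. Of 35556 probe sets, 21789 named 1 gene in the platform annotation, 1621 several and 12146 none. Of the 21789, 21698 matched a RefSeq table (GRCm38.p6) by gene identifier, and 0 symbols changed. The brightest probe set stood for each of the 999 genes with several. Calculations used python 3.11.15, numpy 2.4.6, pandas 2.3.3 and statsmodels 0.14.6 (loess, span 0.4), and were tested on simulated data.

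The members and the 19 gene lists were chosen with earlier results of these data known. Named genes are all members, Hlf, and from each list the genes past 2-fold and the 2 highest and 2 lowest; any other gene was named after seeing its value. The planned alignment of related proteins was not made. Alternatives were 3 scalings, averaging the probe sets of a gene, 2 other floors, 2 other rules of size and values set to the floor.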

Additional observations from a re-analysis of the deposited data

How the results depend on the processing

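The count of 3 mesenchymal genes beyond 2-fold was 3 under each scaling. Averaging probe sets could not change it, since each of the 10 had 1 probe set. Setting values to the floor could not either, since all 10 lay above the floor on both arrays. Floors at the 90th and 99th percentile, 2.58 and 3.78, dropped none of the 10 and so left the count as it was. The count was 5 under a rule of 1.5-fold and 1, Vim, under a rule of 4-fold. A positive difference was found for 9 as deposited, for 10 with centring, for 7 with quantile normalization and for 8 with loess. The share of all compared genes with a positive difference moved as well, at 58.2%, 71.3%, 53.6% and 55.1% in the same order. The median of the 10 ranged from 0.44 to 0.56 over the alternatives run. Over all compared genes, 53 were lower by 2-fold as deposited and 32 with the arrays centred. Among the lists, endothelial markers past 2-fold numbered 4 with the arrays centred and 1 after quantile normalization or loess, against 2 as deposited. Genes of thrombospondin-binding proteins past 2-fold numbered 3 with centring and 0 after quantile normalization or loess, against 2 as deposited. The cholangiocyte gene Prom1, at 1.01 as deposited, was at 0.87 after quantile normalization. A gene's value rests on 1 probe set on 1 array per genotype, so their number limits the precision. No paired analysis was possible because each genotype has 1 array.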

Other observations

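Transcription factors of the epithelial-mesenchymal transition, which raise Vim in epithelial cells that lose their contacts, were compared as a further list. Of 6 factors, 0 differed by 2-fold and the median was -0.15. Zeb2 had a level of 5.35 in the HLF-deficient tumour and 4.71 in the WT tumour, a difference of 0.64, and Zeb1 differed by 0.33. Twist1 and Twist2 were lowest at -0.44 and -0.32, and Snai2 and Snai1 were at -0.20 and -0.09.

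Of 5 compared cholangiocyte markers, 1 passed 2-fold. Prom1, a membrane protein gene of progenitor and biliary cells, was at 1.01, and Epcam was at 0.13. Krt19 and Sox9 were lowest at -0.17 and -0.13. Among the 9 hepatocyte markers Cyp2e1 and Tat were highest at 0.51 and 0.32 and Alb and Apoa1 lowest at -0.15 and -0.02, and their linear sums were 29435 units on the HLF-deficient array and 28261 units on the WT array.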
